A study of Homo sapiens with 6 samples.

Results

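Noncoding snoRNA host genes were examined in the human colorectal cancer line HCT116 after overexpression of the small nucleolar RNA SNORA28. The set held 10 long noncoding RNAs chosen by name, namely SNHG1, SNHG5, SNHG6, SNHG8, SNHG12, SNHG15, SNHG16, SNHG29, GAS5 and ZFAS1, among the 60612 genes listed for each library. Poly(A)-selected RNA was sequenced from cells carrying a control lentivirus (LV-NC, 3 libraries) and from cells carrying a lentivirus for SNORA28 (LV-SNORA28, 3 libraries). The values are FPKM, fragments scaled to transcript length and to all mapped fragments, so levels can be compared between genes on a per-length scale. Nothing in the labels says that the libraries came from separate infections, and p-values then measure the spread between these libraries only.

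Small nucleolar RNAs guide chemical modification of other RNAs, chiefly ribosomal RNA: box C/D members (SNORD) direct 2'-O-methylation and box H/ACA members (SNORA), to which SNORA28 belongs, direct pseudouridylation. In human cells most of them are cut out of the introns of a host transcript. Some hosts code for proteins, often for ribosomal proteins or translation factors, while others, the SNHG genes, GAS5 and ZFAS1, make a spliced RNA with no known large protein product. Many noncoding hosts start with a pyrimidine tract like that of ribosomal protein messages, and their spliced RNA is often removed by nonsense-mediated decay, so that its steady-state level need not follow the output of the intron.

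Within the annotated spans of the 10 genes, RefSeq placed 38 snoRNA genes, of which 31 were SNORD and 6 SNORA genes. GAS5 held 11 of them, including SNORD44, SNORD47 and SNORD74 to SNORD81, and SNHG1 held 9, including SNORD22 and SNORD25 to SNORD31. SNHG12 held 4, SNHG16, SNHG29 and ZFAS1 held 3 each, SNHG5 held 2, and SNHG6, SNHG8 and SNHG15 held 1 each. SNHG1 and SNHG29 are the members whose host RNA passed the test. Of the 10 GENCODE snoRNA genes within them that are listed for each library, 8 are shown. The other 2, both named SNORD22, are longer and are left out. SNORD29 and SNORD31, which RefSeq places in SNHG1, were not among the listed genes found there. Capitals mark GATGA, the core of box C, within the first 15 bases and CTGA, box D, within the last 15 bases, read 5' to 3' on the transcribed strand from GENCODE release 44 (GRCh38, SNHG1 on chromosome 11 and SNHG29 on chromosome 17).
SNORD25 (SNHG1): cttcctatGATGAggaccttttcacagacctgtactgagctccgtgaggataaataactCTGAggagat
SNORD26 (SNHG1): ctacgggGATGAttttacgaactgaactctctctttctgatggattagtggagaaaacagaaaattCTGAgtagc
SNORD27 (SNHG1): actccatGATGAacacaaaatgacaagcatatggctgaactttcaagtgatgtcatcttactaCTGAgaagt
SNORD28 (SNHG1): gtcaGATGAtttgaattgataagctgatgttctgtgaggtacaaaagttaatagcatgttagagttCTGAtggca
SNORD30 (SNHG1): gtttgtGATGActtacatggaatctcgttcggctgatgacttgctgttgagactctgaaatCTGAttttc
SNORD49A (SNHG29): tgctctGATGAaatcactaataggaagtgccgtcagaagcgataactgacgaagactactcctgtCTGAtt
SNORD49B (SNHG29): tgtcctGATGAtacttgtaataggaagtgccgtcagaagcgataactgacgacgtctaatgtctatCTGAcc
SNORD65 (SNHG29): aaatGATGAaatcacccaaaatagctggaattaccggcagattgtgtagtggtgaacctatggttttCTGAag
The 8 shown carried both boxes and the SNORD22 genes carried them in 0 of 2 cases, so that 8 of 10 did, and 199 of 313 annotated SNORD genes (63.6%) did. SNORD49A and SNORD49B shared an unbroken stretch of 35 bases. The motifs do not overlap, and only the transcribed strand was read since they act in the RNA.

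Around their transcription starts, 5 of the 8 members held in the RefSeq promoter table (GRCh38.p14) had an unbroken run of at least 5 C or T bases covering the start, against 9.60% of all 35116 windows. Bases before the start were counted in a run as well as transcribed ones, for the members and for all windows alike. All 5 runs began before the start, and that of SNHG8 ended at the first transcribed base. Such a run is a looser measure than a tract at the start of the RNA, which this class is known to share with ribosomal protein messages. The windows below are shown so that the transcribed part can be read. Each window runs from 10 bases before the RefSeq start to the twentieth transcribed base, on the transcribed strand, with the run in capitals.
SNHG1: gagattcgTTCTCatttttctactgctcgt
SNHG5: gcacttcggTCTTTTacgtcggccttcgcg
SNHG8: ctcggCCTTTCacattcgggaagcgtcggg
SNHG12: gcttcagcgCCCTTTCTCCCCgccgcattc
ZFAS1: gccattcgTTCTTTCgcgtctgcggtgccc
SNHG16: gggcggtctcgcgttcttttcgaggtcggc
SNHG29: ccttttgtgaggattgggatattccgactc
In SNHG16, SNHG29 and GAS5 the RefSeq start lay on a purine and no run covered it. The start chosen decides this readout. The start of the GENCODE canonical transcript, which can differ from the end of the gene's whole span given below, was compared with the RefSeq start, with downstream positive. It lay at 1056 bases for GAS5, 50 for SNHG29 and 11 for SNHG16, and among the members with a run at -1113 for SNHG12, -54 for SNHG8, -37 for SNHG1, -15 for SNHG5 and 0 for ZFAS1.

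The libraries were first checked against their labels. The LV-NC libraries listed SNORA28 at 0.92, 0 and 0.64 FPKM, the LV-SNORA28 libraries at 15.01, 13.66 and 15.2 FPKM, and its host EIF5, a translation initiation factor gene, had 16.88, 8.56 and 9.48 FPKM in LV-NC and 13.8, 17.86 and 14.59 FPKM in LV-SNORA28 (limma adjusted p = 0.3). Of 8 colorectal epithelial markers, 6 had at least 1 FPKM in all libraries, while VIL1 and KRT20 were near 0, and the 3 endothelial markers were below 0.1 FPKM throughout. The summed epithelial markers ran from 762.51 to 850.32 FPKM in LV-NC and from 784.3 to 830.48 FPKM in LV-SNORA28, and the 4 leukocyte markers summed to at most 0.36 FPKM in any library. Of the 3 fibroblast markers, COL1A1 alone was above 1 FPKM and COL1A2 was at 0. Read depth is unknown, and transcripts of the mitochondrial genome made up 42.7% to 47.7% of all FPKM in LV-NC and 35.9% to 38.3% in LV-SNORA28 (exact two-sided permutation p = 0.1, the smallest that 3 against 3 libraries allow). The part of this share in the differences below was not tested, and it cannot be told apart from that of the lentivirus. With libraries scaled to the sum outside the mitochondrial genome, the limma adjusted p was 0.0304 for SNHG1 and 0.0317 for SNHG29. After quantile normalization it was 0.0626 and 0.0281. The median log2 fold change of the 12076 genes tested was 0.09.

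The 10 noncoding hosts differed widely in level, and their order was almost the same in both groups. Levels of different genes also depend on the transcript models behind the FPKM, which are unknown here, so the order holds for these values only. SNHG6, host of SNORD87, was the most abundant, at 75.7 ± 8.11 FPKM in the LV-NC libraries against 65.6 ± 7.42 FPKM in the LV-SNORA28 libraries (SD, n = 3 each). SNHG29, GAS5 and SNHG16 followed, with LV-NC means of 63.9, 31.3 and 18.8 FPKM. SNHG1 and ZFAS1 stood at 11.5 and 8.72 FPKM, and the other 4, namely SNHG8, SNHG12, SNHG15 and SNHG5, lay between 2.51 and 4.52 FPKM. In LV-NC the ranges of neighbours in this order were separate except for SNHG12 with SNHG15 and SNHG15 with SNHG5. In LV-SNORA28 SNHG15 moved from rank 9 to rank 7, where its range overlapped that of SNHG8, and the ranges of SNHG8 with SNHG12 and of SNHG16 with SNHG1 also overlapped. Together the 10 genes summed to 215.9, 234.5 and 220.3 FPKM in LV-NC and to 196.7, 217.9 and 192.2 FPKM in LV-SNORA28. Only LV-SNORA28 replicate 2 reached into the LV-NC range. As a share of the FPKM sum outside the mitochondrial genome they took 0.113% to 0.120% in LV-NC and 0.0979% to 0.109% in LV-SNORA28, and the groups did not overlap on that scale. No test was run on these sums.

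**Figure D1:**
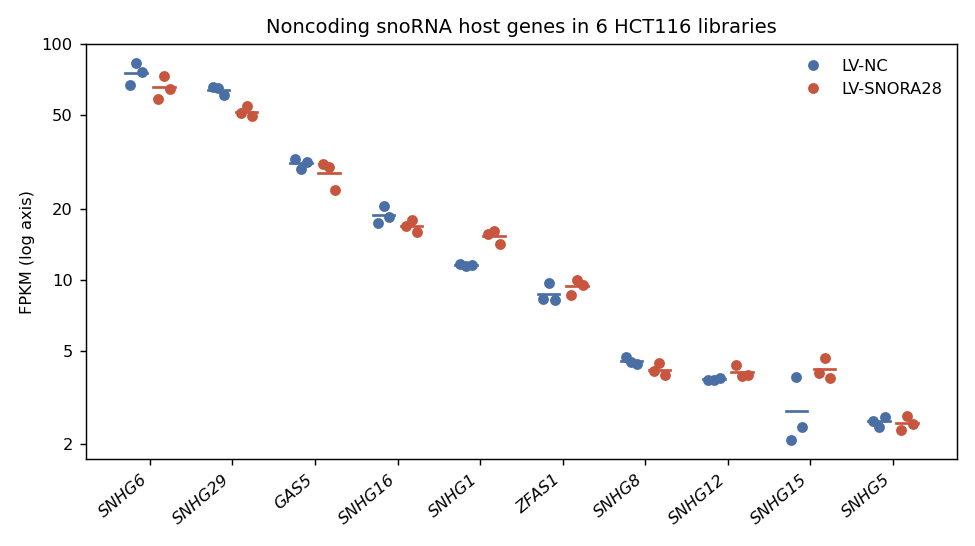
FPKM of the 10 noncoding snoRNA host genes in each library (log axis), ordered by their LV-NC mean. Points are single libraries, 3 for LV-NC and 3 for LV-SNORA28, and horizontal lines are group means. SNHG1 lies higher and SNHG29 lower in LV-SNORA28 with no overlap of the groups, and SNHG15 in LV-NC has 1 library at 3.87 FPKM and the others at 2.08 and 2.38 FPKM.

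The members did not move together after SNORA28 overexpression. SNHG1 rose by 32.7%, SNHG29 fell by 19.0%, and the other 8 did not pass the test in either direction. The comparison asks whether excess of a single H/ACA snoRNA is accompanied by a change in the noncoding RNAs that carry other snoRNAs. All 10 passed the filter of a mean of at least 1 FPKM and were tested with limma on log2(FPKM + 1), with the Benjamini-Hochberg method over all 12076 genes. Of the 10, 1 was called higher and 1 lower at an adjusted p below 0.05. The same fit called 35% of simulated absolute log2 changes of 0.5, so a member that was not called may still have changed. Among all genes tested 8.91% were called, 6.81% higher and 2.10% lower (822 and 254 genes, or 451 and 375 after quantile normalization). The fitted log2 fold changes were above 0 for 4 members and below 0 for 6, against 33.3% of all genes tested below 0, and their median was -0.06. Groups did not overlap for 3 members, higher for SNHG1 and SNHG12 and lower for SNHG29. Such separation held for 35.1% of all genes tested, 27.0% higher and 8.16% lower.

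SNHG1 (ENSG00000255717; GRCh38 chromosome 11, 62851978 to 62855953, minus strand), the host of SNORD22 and of SNORD25 to SNORD31, had 11.62, 11.47 and 11.51 FPKM in LV-NC and 15.59, 16.16 and 14.15 FPKM in LV-SNORA28. The LV-NC libraries had an SD of 0.0777 FPKM, and all 3 LV-SNORA28 libraries were above them. The difference of means was 32.7%, the log2 fold change was 0.38 (SE 0.07) and the limma adjusted p was 0.0243. The direction held in all alternatives, but the adjusted p was below 0.05 in 6 of the 14 and ranged from 0.0174 to 0.0899. Leaving out any single library other than LV-SNORA28 replicate 3 took it above 0.05, to values from 0.0552 without LV-NC replicate 1 to 0.0899 without LV-SNORA28 replicate 2. Quantile normalization gave 0.0626.

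SNHG1 shares its promoter region with SLC3A2, which encodes the heavy chain of the CD98 amino acid transporter and starts 51 bases away on the opposite strand. SLC3A2 had 38.83 to 46.13 FPKM in LV-NC and 46.52 to 54.9 FPKM in LV-SNORA28. These ranges were separate, but the log2 fold change was 0.27 (SE 0.09) and missed the threshold, with a limma adjusted p of 0.112. Head-to-head partners of 3 other members were listed. ZNFX1, a helicase gene that starts 216 bases from ZFAS1, had a log2 fold change of -0.08 and a limma adjusted p of 0.837. ZBTB37, next to GAS5, and ENSG00000267546, a noncoding gene next to SNHG16, had means below 1 FPKM and were not tested.

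SNHG29 (ENSG00000175061; chromosome 17, 16438767 to 16480249, plus strand), the host of SNORD49A, SNORD49B and SNORD65, had 65.72, 65.34 and 60.68 FPKM in LV-NC and 50.83, 54.65 and 49.76 FPKM in LV-SNORA28. All 3 LV-SNORA28 libraries were below the lowest LV-NC library. The difference of means was -19.0%, the log2 fold change was -0.30 (SE 0.06) and the limma adjusted p was 0.0385. The direction again held in all alternatives, while the adjusted p was below 0.05 in 5 of the 14 and ranged from 0.0281 to 0.127. It was above 0.05 whichever library was left out, from 0.0624 without LV-NC replicate 3 to 0.127 without LV-SNORA28 replicate 3. LRRC75A, which overlaps SNHG29 on the opposite strand, was at 1.06 FPKM or less in every library. Whether the authors' quantification used strand is not given in the sources used here.

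The ratio of SNHG29 to SNHG1 within a library does not depend on a scale factor applied to that library. SNHG29 was 5.66, 5.70 and 5.27 times SNHG1 in LV-NC and 3.26, 3.38 and 3.52 times SNHG1 in LV-SNORA28. The pair was chosen after its values were seen, so no test was run on the ratio. As SNHG1 was higher and SNHG29 lower in all 3 LV-SNORA28 libraries, the ratios had to separate and add no further evidence.

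**Figure D2:**
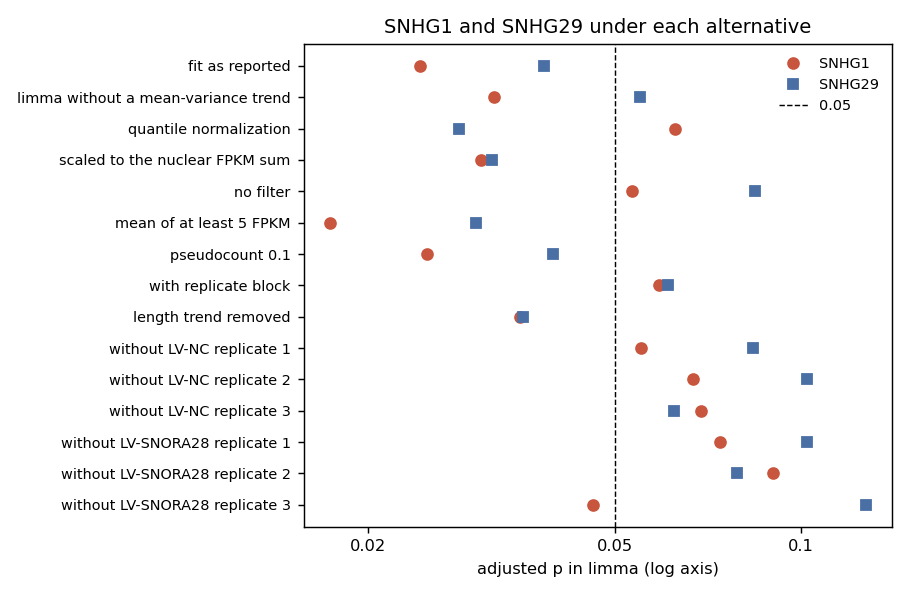
Adjusted p in limma (log axis) for SNHG1 (circles) and SNHG29 (squares) in the fit as reported, in the first line, and under each of 14 alternatives. The dashed line marks 0.05. With 1 library left out, SNHG1 stays below 0.05 once and SNHG29 never.

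The remaining abundant members had lower means in LV-SNORA28 that were within the spread of the libraries. SNHG6 (ENSG00000245910; chromosome 8, 66920561 to 66926398, minus strand) had 67.22, 83.37 and 76.6 FPKM in LV-NC and 58.81, 73.53 and 64.48 FPKM in LV-SNORA28. The groups overlapped, and the log2 fold change was -0.20 (SE 0.11) with a limma adjusted p of 0.283. GAS5 (ENSG00000234741; chromosome 1, 173858559 to 173868882, minus strand), named for its accumulation in growth-arrested cells and the richest host of the set in snoRNAs, had 32.57, 29.58 and 31.63 FPKM in LV-NC and 31.04, 30.02 and 24.15 FPKM in LV-SNORA28. LV-SNORA28 replicate 3 stood below the other 5 libraries. The log2 fold change of -0.14 (SE 0.10; limma adjusted p 0.424) was -0.03 without that library. SNHG16 (ENSG00000163597; chromosome 17, 76557727 to 76670985, plus strand), the host of SNORD1A, SNORD1B and SNORD1C, had 17.37, 20.64 and 18.39 FPKM in LV-NC and 16.99, 17.93 and 15.95 FPKM in LV-SNORA28, with a log2 fold change of -0.14 (SE 0.08; limma adjusted p 0.324).

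SNHG15 (ENSG00000232956; chromosome 7, 44983019 to 44986961, minus strand), the host of SNORA9, had the largest fitted change of the set without passing the test. Its LV-NC libraries had 2.08, 3.87 and 2.38 FPKM, and its LV-SNORA28 libraries 4.03, 4.63 and 3.83 FPKM. LV-NC replicate 2 lay within the LV-SNORA28 range and the other LV-NC libraries well below it. The log2 fold change was 0.48 (SE 0.18), with a limma adjusted p of 0.139 (0.0327 before adjustment). Without LV-NC replicate 2 it was 0.68 (SE 0.10), and the limma adjusted p was 0.0357. With any other library left out the limma adjusted p was 0.232 to 0.307, and it was below 0.05 in 1 of 13 alternatives.

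ZFAS1 (ENSG00000177410; chromosome 20, 49278178 to 49299600, plus strand), antisense to the start of ZNFX1 and the host of the SNORD12 group, had 8.29, 9.65 and 8.23 FPKM in LV-NC and 8.63, 10 and 9.51 FPKM in LV-SNORA28. The groups overlapped, with a log2 fold change of 0.10 (SE 0.09; limma adjusted p 0.526). SNHG12 (ENSG00000197989; chromosome 1, 28578538 to 28583132, minus strand), the host of SNORA16A, SNORA44, SNORA61 and SNORD99, had 3.77, 3.75 and 3.83 FPKM in LV-NC and 4.35, 3.91 and 3.95 FPKM in LV-SNORA28. The groups were separate, yet the log2 fold change was only 0.08 (SE 0.07; limma adjusted p 0.479), and it was -0.01 after quantile normalization. TRNAU1AP, a selenocysteine tRNA-associated protein gene whose last bases overlap SNHG12 on the opposite strand, rose from 3.05 to 3.40 FPKM in LV-NC to 4.19 to 4.25 FPKM in LV-SNORA28 (log2 fold change 0.30, limma adjusted p 0.0430). It was chosen after its values were seen, and the call held in 2 of 13 alternatives and never with a library left out.

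SNHG8 (ENSG00000269893; chromosome 4, 118278703 to 118285316, plus strand), the host of SNORA24, had 4.7, 4.48 and 4.39 FPKM in LV-NC and 4.1, 4.43 and 3.93 FPKM in LV-SNORA28, a log2 fold change of -0.10 (SE 0.07; limma adjusted p 0.401). SNHG5 (ENSG00000203875; chromosome 6, 85650491 to 85678932, minus strand), the host of SNORD50A and SNORD50B, had 2.52, 2.38 and 2.62 FPKM in LV-NC and 2.29, 2.63 and 2.44 FPKM in LV-SNORA28. The log2 fold change of -0.02 (SE 0.08; limma adjusted p 0.877) was the smallest of the set. SNHG5 overlaps the protein-coding gene ENSG00000271793 on the same strand, and that gene ranged from 1.29 to 5.29 FPKM within LV-NC alone. Reads in the overlap could have been assigned to either gene.

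The threshold of the study, a fold change above 1.5 with p below 0.05, was applied here with p before adjustment, since the study does not say which p it used. By limma 0 members met it, although 3 members (SNHG1, SNHG29 and SNHG15) had an unadjusted p below 0.05, as did 28.0% of all genes tested. Among all genes tested 3.79% met the threshold, 2.58% higher and 1.22% lower. With a pseudocount of 0.1 in place of 1, SNHG15 met it (log2 fold change 0.61, unadjusted limma p 0.0328).

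**Figure D3:**
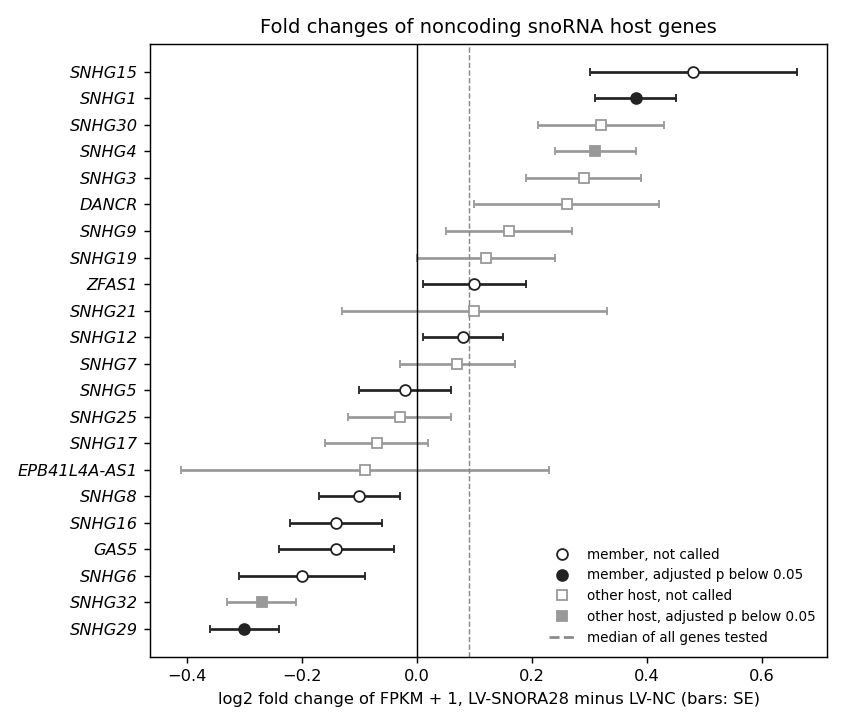
Log2 fold change of FPKM + 1, LV-SNORA28 minus LV-NC, with its SE for the 10 members (circles) and the 12 other noncoding snoRNA host genes tested (squares). Filled symbols have an adjusted p below 0.05, and the dashed line is the median of all genes tested, 0.09. The values run from -0.30 for SNHG29 to 0.48 for SNHG15.

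The other noncoding snoRNA host genes were compared in the same way. Of 23 listed, 12 passed the filter, and their median log2 fold change was 0.11. Of the 12, 1 was called higher and 1 lower (16.7% called, against 8.91% of all genes tested). After quantile normalization 0 were called higher and 1 lower. SNHG32, on chromosome 6 at 31834608 to 31839766, had 47.02, 45.07 and 44.48 FPKM in LV-NC and fell to 37.77, 38.65 and 36.24 FPKM in LV-SNORA28 (log2 fold change -0.27, SE 0.06, limma adjusted p 0.0356). SNHG4, on chromosome 5 at 139274102 to 139284899, had 9.39, 10.68 and 10.01 FPKM in LV-NC and rose to 12.97, 12.83 and 12.05 FPKM in LV-SNORA28 (log2 fold change 0.31, SE 0.07, limma adjusted p 0.0460). Both calls were lost whichever library was left out, with limma adjusted p-values up to 0.122 for SNHG32 and 0.144 for SNHG4. SNHG4 lies within the span of MATR3, a protein-coding host with a log2 fold change of 0.29 (limma adjusted p 0.0596). Reads in the overlap could have been assigned to either gene. The other 11 genes, GAS5-AS1 and SNHG20 among them, had means below 1 FPKM. GAS5-AS1 was listed by name only, since it lies on the strand opposite GAS5 and is not the host of the GAS5 snoRNAs.

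Among the protein-coding hosts, the ribosomal protein genes are described first. Of the 28 ribosomal protein genes that hold a snoRNA, 24 had a log2 fold change below 0, the median was -0.17 (-0.07 after quantile normalization), and RPL13A alone was called, falling from 769 ± 47.2 FPKM (SD, n = 3) to 624 ± 9.11 FPKM (SD, n = 3) with a limma adjusted p of 0.0416. Over all 84 ribosomal protein genes tested the median was -0.13, with 2 called higher and 4 lower. RPL36 (log2 fold change -0.29) and RPL36AL (-0.28) were among those that fell, and RPL22L1, a paralog of RPL22, rose (0.67). The calls of RPL13A and RPL22L1 held in 4 of 14 alternatives, that of RPL36AL in 5 and that of RPL36 in 6. Ribosomal protein transcripts together summed to 24128 to 25249.2 FPKM in LV-NC and to 21590.6 to 22476 FPKM in LV-SNORA28.

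The 158 other protein-coding hosts tested had a median log2 fold change of 0.14 (0.05 after quantile normalization), with 18 called higher and 4 lower (13.9% called, against 8.91% of all genes tested). PPP2R5A, which encodes a regulatory subunit of protein phosphatase PP2A and holds SNORA16B, rose from 5.63 ± 0.412 to 11.7 ± 1.07 FPKM (SD, n = 3 each; log2 fold change 0.93, limma adjusted p 0.00431). NOL11, a ribosome biogenesis factor gene that holds SNORA38B, rose from 14.6 ± 1.71 to 23.9 ± 1.51 FPKM (log2 fold change 0.68, limma adjusted p 0.0127). PRKAA1, the gene of a catalytic subunit of AMP-activated kinase, rose with a log2 fold change of 0.66. RPL17-C18orf32, a readthrough gene that runs beyond RPL17 and overlaps it, fell with a log2 fold change of -0.65, while RPL17 itself had -0.02 (limma adjusted p 0.9). Reads in the shared part could have been assigned to either gene. The calls of PPP2R5A and PRKAA1 held in all 14 alternatives, that of NOL11 in 12 and that of RPL17-C18orf32 in 6. Among 498 other noncoding genes of the lncRNA class 24 were called higher and 5 lower, with a median log2 fold change of 0.10. The largest changes among those called were ENSG00000263244 (1.93), ENSG00000286037 (-1.33), SLX1A-SULT1A3 (-1.07) and ENSG00000243004 (-1.0), whose calls held in 7 of 13, 8 of 14, 12 of 13 and 7 of 14 alternatives.

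**Figure D4:**
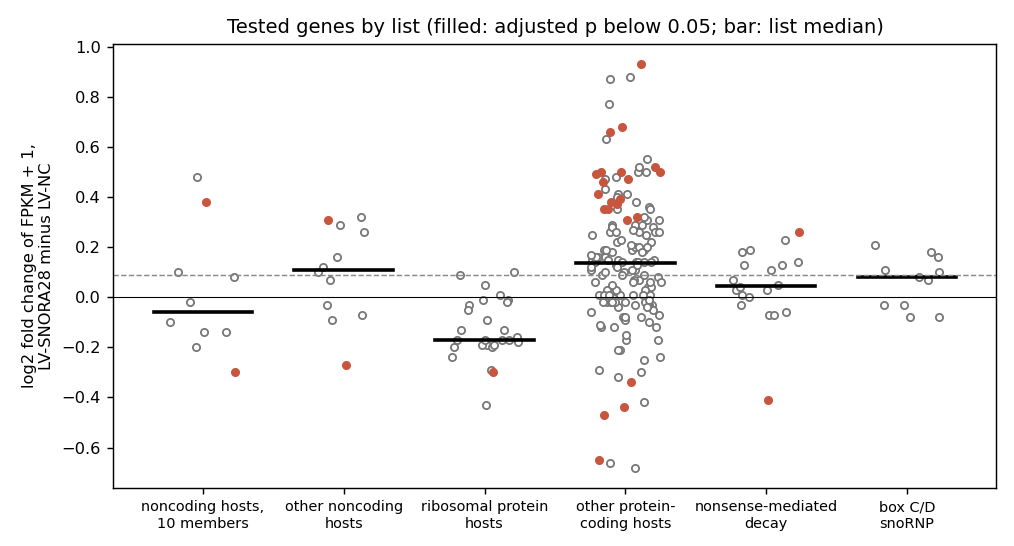
Log2 fold change of FPKM + 1, LV-SNORA28 minus LV-NC, for each tested gene of 6 lists. Filled points have an adjusted p below 0.05, bars are list medians and the dashed line is the median of all genes tested, 0.09. Ribosomal protein hosts have a median of -0.17 and the other protein-coding hosts 0.14, with the 10 noncoding members between them at -0.06. After quantile normalization the members lie below both lists, at -0.15 against -0.07 and 0.05.

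Genes of pathways that act on noncoding hosts or their snoRNAs were compared with all genes tested, of which 8.91% were called. The shares called were 10% for decay, 7.14% for regulators of pyrimidine-tract messages and 0% for box C/D particles. With 20, 14 and 11 genes tested, the lists are too short for a close comparison of shares. Of 20 genes of nonsense-mediated decay, which degrades many spliced host RNAs, 1 was called higher and 1 lower, with a median log2 fold change of 0.05. CASC3, a core protein of the exon junction complex, rose from 13.3 ± 0.386 to 16.1 ± 0.323 FPKM (SD, n = 3 each; limma adjusted p 0.0398). UPF1, the central helicase of the pathway, had a log2 fold change of -0.06 with a limma adjusted p of 0.647. Of the 14 regulators of messages with a terminal pyrimidine tract, MTOR, the kinase that controls their translation, was called higher with a log2 fold change of 0.57 (limma adjusted p 0.0308). The calls of CASC3 and MTOR held in 2 and 8 of 14 alternatives. Of the 11 tested genes for box C/D particle proteins and their assembly, limma called 0 at an adjusted p below 0.05, and 2 had an unadjusted p below 0.05. FBL, the methyltransferase, had a log2 fold change of 0.10 and a limma adjusted p of 0.506.

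The snoRNAs inside the hosts could be followed only in part, since poly(A) selection recovers them poorly. Among the genes listed for each library, GENCODE placed 25 snoRNA genes within the members on the same strand and none within GAS5. Of these, 13 were listed below 0.2 FPKM in all 6 libraries, including all 3 of SNHG29, and 7 had at least 1 FPKM in all 6. SNORD27 and SNORD30, both within SNHG1, ran from 13.94 to 20.26 FPKM and from 8.18 to 17.54 FPKM, and their groups overlapped while that of the host did not (limma adjusted p 0.701 and 0.636). SNORD26, also within SNHG1, was at 26.87 FPKM in LV-SNORA28 replicate 2 and at 0.12 to 0.14 FPKM elsewhere. SNORA44, within SNHG12, had 0.01, 0.02 and 4.24 FPKM in LV-NC and 8.9, 6.75 and 7.55 FPKM in LV-SNORA28. The groups were separate, but the log2 fold change was 2.31 (SE 0.62) and missed the threshold, with a limma adjusted p of 0.0689. Without LV-NC replicate 3 it was 3.10, with a limma adjusted p of 0.00751. With any other library left out the limma adjusted p was 0.146 to 0.17, and it was below 0.05 in 1 of 13 alternatives. Of the 10 hosted snoRNAs that passed the filter, limma called 0 at an adjusted p below 0.05 and 1, SNORA44, had an unadjusted p below 0.05. How much of such a value comes from the mature snoRNA and how much from unspliced host RNA cannot be told apart in these files.

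Transcript length moved with the calls over the whole table. Among 1629 tested genes whose canonical transcript has up to 1000 nt, the median log2 fold change was 0.03, with 64 called higher and 108 lower. Among 4545 genes over 1000 to 3000 nt it was 0.09, with 350 higher and 76 lower. Among 5879 genes over 3000 nt it was also 0.09, with 405 higher and 70 lower. The canonical transcript of SNHG29 has 443 nt, those of SNHG16 and GAS5 have 498 and 768 nt, and that of SNHG1 has 1162 nt. The other members are longer and lie on both sides of 0. SNHG5 (1316 nt), SNHG6 (1821 nt) and SNHG8 (6166 nt) had fitted log2 fold changes below 0. Those of SNHG12 (1871 nt), SNHG15 (2998 nt) and ZFAS1 (4526 nt) were above 0. With the length trend removed from each library, SNHG1 (log2 fold change 0.30, limma adjusted p 0.0352) and SNHG29 (-0.28, 0.0356) kept their calls.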

How the data were processed

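Poly(A)-selected, dUTP-stranded, paired-end RNA-seq libraries of HCT116 cells, 3 LV-NC and 3 LV-SNORA28, were grouped by sample title. Each deposited table gives FPKM values of 60612 Ensembl genes for 1 library, which the authors normalized to transcript length and mapped fragments. The submitters' processing notes name cutadapt 1.9, HISAT2 2.2.1, StringTie 2.1.6 and the build hg38. The annotation release, filters, use of strand and mapped totals were not given in the sources used here, so depth is unknown and no counting interval was attached. DESeq2 and edgeR, also named in the notes, were not run, since FPKM values are not counts.

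Symbols, biotypes and coordinates came from GENCODE release 44 (GRCh38), found for 60401 genes, which may differ from the authors' annotation. SnoRNA positions and start windows also came from RefSeq (GRCh38.p14). The 12076 genes whose mean over all libraries reached 1 FPKM were fitted on log2(FPKM + 1) with limma 3.58.1 in R 4.3.3 (lmFit, eBayes with trend, two-sided, Benjamini-Hochberg). Fold changes are on that scale, which understates changes of low genes. The fit was tested on simulated data before use. Of simulated absolute log2 changes of 0.5, 1 and 2 it called 35%, 84% and 96%.

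Named genes were the members, SNORA28, EIF5, head-to-head partners within 1000 bases and up to 4 called genes with the largest change in each list; other genes were named with their values in view. Lists of decay, pyrimidine-tract and box C/D genes came from general knowledge. The members and lists were chosen with earlier results of these data known. The values of 1 called gene of the decay list are not reported here.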

Additional observations from a re-analysis of the deposited data

How the results depend on the processing

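The 2 members called became 1 without the mean-variance trend, 1 after quantile normalization, 0 without a filter on low values, 0 with the replicate number as a block, 0 at the threshold of the study and 1 at that threshold with a pseudocount of 0.1. With 1 library left out they ranged from 0 to 1. A fit without a filter tests more genes, and a fit without a library has fewer samples; otherwise the cause was not tested. The count stayed at 2 with the nuclear scaling, a mean of at least 5 FPKM, a pseudocount of 0.1 and the length trend removed. The members' median log2 fold change of -0.06 was -0.15 after quantile normalization, -0.14 for the 6 members with a mean of at least 5 FPKM and -0.12 with the length trend removed. Without any 1 library it lay between -0.10 and -0.03. The summed FPKM of the members differed by -21.3 between the groups, and by -29.1 to -15.8 with 1 library left out. No pairing by replicate number was found: across genes, the correlation of same-numbered libraries around their group means was -0.0441, 0.0914 and 0.00983 for numbers 1, 2 and 3.

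Direction turned only for values that never passed. SNHG5 was 0.000523 without LV-NC replicate 3 and 0.01 without LV-SNORA28 replicate 1, SNHG12 was -0.01 after quantile normalization and -0.0083 with the length trend removed, ZFAS1 was -0.00415 with the length trend removed, ZNFX1 ran from -0.22 to 0.16 (without LV-SNORA28 replicate 3), SNORD27 from -0.02 (without LV-NC replicate 2) to 0.22, SNORD30 from -0.46 to 0.03 (without LV-SNORA28 replicate 3), and RPL17 from -0.06 to 0.03 (above 0 without LV-NC replicate 1 or LV-SNORA28 replicate 1), each with 1 library left out. Over the named genes, 144 values fell short of the threshold, 3 came to pass it (SNHG15 without LV-NC replicate 2, EIF5, 0.71, without LV-NC replicate 1 and SNORA44 without LV-NC replicate 3) and 367 kept direction and side. Quantile normalization moved the median of all genes from 0.09 to 0.00 and their calls from 822 higher and 254 lower to 451 and 375. Removing the length trend, and joining the threshold of the study to a pseudocount of 0.1, were alternatives added with the data in view. Depth is unknown, which limits what can be said of members near 2 FPKM.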
